A study of Mus musculus with 87 samples.

Results

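The 10 genes of lipid droplets were followed through the regenerating mouse liver, out of the 37991 genes of the deposited table. They were Cidec, Cidea and Cideb of the CIDE family, Plin2, Plin3, Plin4 and Plin5 of the perilipin family, the triglyceride lipase gene Pnpla2, its inhibitor gene G0s2 and the fatty acid receptor gene Cd36. The 10 genes were selected by name, and the list was built around the difference in Cidec between partial hepatectomy (PH) and sham surgery at 10 h, so it was chosen on measured values and the 10 h values are given as a description with no test. RNA-Seq had been performed on poly(A) RNA of whole livers, 1 library for each mouse, from male C57BL/6 mice that were 12 to 14 weeks old at surgery, and no group carried an engineered allele. The mice were kept in light without food from Zeitgeber time (ZT) 0 and in darkness with food from ZT12. In PH (groups labeled X) most of the liver was removed at ZT2 under anesthesia. In sham surgery (S) the abdomen was opened under the same anesthesia without resection. The unoperated controls (C) received neither. The number in a label gives hours after surgery, or weeks with W.

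The 80 livers analysed here comprised 46 after PH, 20 after sham surgery and 14 from unoperated mice, in 19 groups. There were 9 C0 livers (ZT2), 3 C4 (ZT6) and 2 C4W livers. At ZT3 there were 6 S1 and 6 X1 livers, at ZT6 5 S4 and 3 X4, at ZT12 3 S10 and 6 X10, and at ZT22 3 S20 and 6 X20. Later groups were X28 (ZT6, 3 livers), X36 (ZT14, 6), X44 (ZT22, 3), S48 and X48 (ZT2, 3 and 5), X72 (ZT2, 3), X1W (3) and X4W (2). After 20 h the only sham group was S48, and no unoperated mice were sampled from ZT12 to ZT22. Differences of the groups at ZT3, ZT14 and ZT22 (X1, S1, X20, S20, X36 and X44) from C0 at ZT2 therefore also hold the time of day, and the 2 cannot be told apart there.

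Lipid droplets store triglyceride behind a coat of proteins. Perilipins cover the droplet and control access of lipases, CIDE proteins such as Cidec promote the growth of droplets by lipid transfer at their contact sites, and Pnpla2 encodes ATGL, the lipase that starts triglyceride breakdown. After PH the remaining liver takes up fatty acids from adipose tissue and passes through a phase of droplet accumulation, known as transient regeneration-associated steatosis, while hepatocytes prepare to divide.

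Of the 10 genes, 9 were detected, meaning a log2 RPKM (reads per kilobase of exon and per M (mega) mapped reads) above −1.5 in at least 1 liver. Cidea, a CIDE gene of brown fat, did not reach this level, with at most 0.265 RPKM in any of the 80 livers, and was not tested. Estimated depth was 12.2 to 48.8 M reads per library. Tests were made with limma on log2(RPKM + 0.25) over all 15396 detected genes. A gene was called at a Benjamini-Hochberg adjusted p below 0.05 and a difference beyond 0.5 on the log2 scale, and folds are on this scale, which understates changes at low levels. Hepatocyte markers were high throughout, with Alb at a median of 27194 RPKM. The adipocyte markers Adipoq, Plin1, Lep, Retn, Cfd and Adig added up to at most 1.20 RPKM in any liver, and the brown fat gene Ucp1 was at 0 in 76 of 80 livers. Another brown fat marker, Cox7a1, which muscle also expresses, was above 0 in every liver, with a median of 1.35 and at most 6.29 RPKM. The remaining gene of the adipocyte list, Fabp4, which capillary endothelium and macrophages also express, reached 56.0 RPKM. With Fabp4, the 7 adipocyte markers summed to a median of 36.3 RPKM in X10, the highest group median, 9.19 in S10 and 11.5 in C0. In X10 and S10 the 6 macrophage markers had medians of 17.9 and 12.2 RPKM, and the 6 endothelial markers 13.8 and 13.5. The source of the Fabp4 RNA was not tested. Some livers stood apart in several members. C0 replicates 4 to 6 were high in Plin4 and Plin5, S4 replicates 4 and 5 likewise, and X20 replicate 6 was high in Cidec and Cd36. The paper places the livers of C0, S1, S4, X1, X4, X10, X20 and X36 in more than 1 experimental series. The sources used here do not tie replicate numbers to series. X28, X44, X48, S48, X72 and X1W came from 1 series, and S10 and S20 from only 1 of those of X10 and X20. C4 came from a series that held none of the X4, S4 or X28 livers. Differences of these groups from C4 therefore also hold the series, and surgery and series cannot be told apart there. In whole liver, fewer cells of a type and less RNA per cell cannot be told apart.

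Promoter sequences were looked at because Cidec and Plin2 ran closely together over the groups. RefSeq windows (assembly GRCm38.p6) of 250 bases before the gene's start were taken for 9 of the 10 members, 11 windows in all. Cidea was left out of this search. The windows were searched on both strands for AGGTCANAGGTCA, the direct repeat with 1 base of spacing that PPAR and RXR receptors recognize, with up to 2 mismatches. A match was found in 1063 of 32851 windows of all genes (3.24%), and among the members in Plin2 and Cd36, with 2 mismatches each. Cidec had none in either of its 2 windows. The matches, in capitals, begin 225 bases before the start of Plin2 and 63 bases before that of Cd36. They are descriptions of letters and not shown sites of binding. The sequences below read 5′ to 3′ along the gene.
Cidec, chr6:113434765-113435014, minus strand: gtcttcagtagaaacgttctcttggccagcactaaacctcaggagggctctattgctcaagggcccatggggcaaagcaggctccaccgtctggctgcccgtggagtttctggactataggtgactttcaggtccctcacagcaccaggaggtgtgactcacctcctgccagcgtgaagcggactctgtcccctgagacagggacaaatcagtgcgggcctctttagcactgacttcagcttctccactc
Cidec, chr6:113435761-113436010, minus strand: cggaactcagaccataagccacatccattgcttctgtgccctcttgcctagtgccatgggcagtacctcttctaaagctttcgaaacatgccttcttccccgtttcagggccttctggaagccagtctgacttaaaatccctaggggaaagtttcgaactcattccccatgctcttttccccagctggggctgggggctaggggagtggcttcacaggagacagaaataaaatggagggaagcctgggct
Plin2, chr4:86670060-86670309, minus strand: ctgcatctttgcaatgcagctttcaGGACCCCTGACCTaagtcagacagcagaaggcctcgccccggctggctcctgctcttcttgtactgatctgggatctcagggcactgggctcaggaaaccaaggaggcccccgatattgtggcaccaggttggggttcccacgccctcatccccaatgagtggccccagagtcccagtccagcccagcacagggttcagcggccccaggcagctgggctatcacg
Cd36, chr5:17835897-17836146, minus strand: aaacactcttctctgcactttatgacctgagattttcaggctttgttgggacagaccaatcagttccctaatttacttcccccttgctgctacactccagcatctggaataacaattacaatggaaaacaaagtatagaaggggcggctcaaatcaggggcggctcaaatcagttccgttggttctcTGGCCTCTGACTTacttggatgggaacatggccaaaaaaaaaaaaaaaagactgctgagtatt

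Cidec (mm9, chr6:113374628-113385754, minus strand) had the widest range of group means among the members tested, with the highest 469 times the lowest, and was almost silent at rest. Its 9 C0 livers gave 0.0503 to 0.266 RPKM with a median of 0.151, equal to an estimated 2.00 to 16.0 reads. The C4 livers gave 0.643, 0.604 and 0.695 RPKM. At 10 h, the values that chose the gene, the 6 X10 livers ranged from 27.2 to 133 RPKM with a median of 53.4, and the S10 livers gave 3.54, 2.46 and 1.26 RPKM. All X10 livers lay above all S10 livers. The 2 group means differed by 4.56 on the log2 scale, which put Cidec at rank 1 of 15396 genes by this difference. The level of Cidec in X10 was the highest of all groups, and every pair of neighbors in the order of its 19 group means overlapped in range.

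The other members at 10 h are likewise a description, since the list was built on this contrast and has no numeric limit. After Cidec came Plin4, with X10 at 3.36 to 10.3 RPKM (median 7.05) and S10 at 1.05, 1.34 and 1.59, a log2 difference of 2.15 and rank 14 of 15396 genes. Plin2 differed by 1.80 (rank 26) and Plin5 by 1.23 (rank 101), with X10 at 34.7 to 60.7 RPKM (median 47.7) and S10 at 19.5, 23.1 and 18.8 in Plin5. Pnpla2 differed by 0.52 (rank 825), with X10 at 24.5 to 39.6 RPKM (median 28.7) and S10 at 20.0, 23.3 and 19.2. In these genes no X10 liver overlapped S10, as in 17.6% of all detected genes. Cd36 differed by 0.42, Plin3 by 0.15, G0s2 by −0.01 and Cideb by −0.14, with overlapping ranges.

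In the 4 h livers, which are not part of the 10 h contrast, Cidec was already higher after PH. The members were chosen with earlier results of these data known, so this is not an independent test. The X4 livers gave 9.82, 17.6 and 23.97 RPKM and the S4 livers 1.77, 2.18, 1.52, 1.40 and 3.59 RPKM, without overlap. The difference was 7.33-fold (2.87 ± 0.57 SE on the log2 scale, adjusted p = 0.00019). At 1 h X1 ranged from 0.956 to 2.82 (median 1.19) and S1 from 0.325 to 1.75 RPKM (median 0.830), the ranges overlapped, and the gene did not pass the test (log2 difference 0.53, 95% interval −0.35 to 1.42, adjusted p = 0.82). Against C0 it was higher 4.13-fold in X1 (adjusted p = 6.4e-05) and 2.85-fold in S1 (adjusted p = 0.0046). Surgery and time of day cannot be told apart in these 2 differences. With replicates 4 to 6 of both groups alone the X1 value was 2.03 on the log2 scale but no longer passed (adjusted p = 0.050). The S1 rise did not pass with C0 replicates 1 to 3 or 4 to 6 as the only controls, nor with a pseudocount of 1. Within replicates 4 to 6 of S1 and C0 alone it did not pass either.

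Cidec was next low at X20 and high at X28. The X20 livers gave 0.577 to 12.9 RPKM with a median of 1.75, where 12.9 was replicate 6, and the S20 livers gave 0.184, 0.234 and 0.281. All X20 livers were above all S20 livers, and the 4.81-fold difference passed (log2 2.26 ± 0.55 SE, adjusted p = 0.0037) and was lost only when the spread was estimated from these 9 livers alone (adjusted p = 0.13). Without X20 replicate 6 it was 1.76 (adjusted p = 0.020). At X28 the values were 8.52, 55.3 and 29.7 RPKM, against 0.604 to 0.695 in C4, a 27.3-fold rise (log2 4.77 ± 0.64 SE, adjusted p = 1.2e-08). X36 ranged from 2.44 to 21.1 RPKM (median 12.2), 26.5-fold above C0 (adjusted p = 6.4e-16).

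By X44, sampled at the same ZT22 as X20, Cidec was at 2.57, 3.03 and 0.319 RPKM, 4.39-fold above C0 (adjusted p = 0.00035). The difference between X44 and X20 was −0.41 on the log2 scale (95% interval −1.495 to 0.67, adjusted p = 0.66). At 48 h the X48 livers gave 0.772, 0.407, 0.585, 0.583 and 1.15 RPKM and the S48 livers 0.328, 0.173 and 0.0891. These ranges did not overlap, but the PH-sham difference did not pass (log2 1.07 ± 0.57 SE, adjusted p = 0.12). Against C0, X48 was 2.32-fold higher (adjusted p = 0.013), a call lost with C0 replicates 1 to 3 or 4 to 6 alone, with a pseudocount of 1 and when libraries were scaled to the same median. X72 (0.190, 0.263 and 1.14 RPKM), X1W (0.171, 0.189 and 0.289) and X4W (0.236 and 0.149) had returned to low levels.

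**Figure D1:**
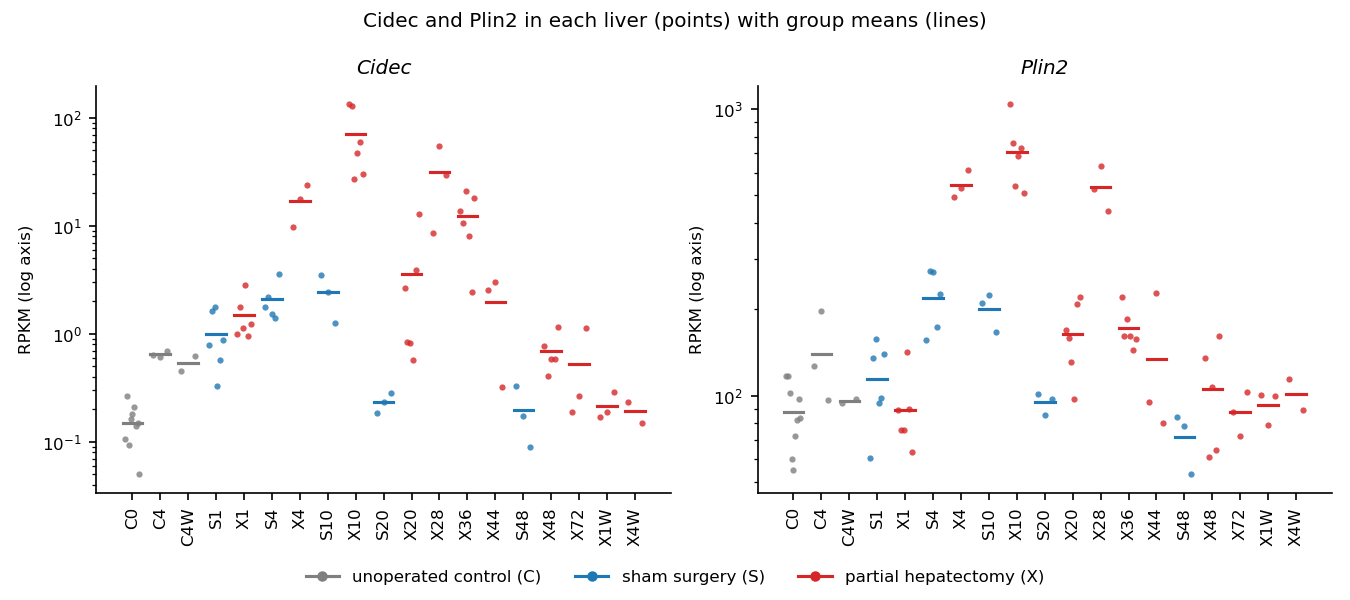
Cidec and Plin2 in RPKM on log axes in each of 80 livers, by group; points are livers and lines group means, with unoperated controls in grey, sham surgery in blue and PH in red. For both genes the means of X4, X10 and X28 are the highest 3, and the X10 means are 70.8 RPKM for Cidec and 711 RPKM for Plin2.

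Plin2 (mm9, chr4:86294290-86315964, minus strand), the perilipin that coats most hepatocyte droplets, was abundant at rest and followed the same course with a smaller range. Its C0 livers gave 55.1 to 117 RPKM with a median of 83.6. At 4 h the X4 livers gave 492, 531 and 612 RPKM and the S4 livers 156, 272, 271, 173 and 226, without overlap. The PH-sham difference was 2.54-fold (log2 1.34 ± 0.29 SE, adjusted p = 0.00053) and passed in all 12 alternatives and without any 1 of the 8 livers. Plin2 was 1.60-fold higher in S4 than in the unoperated C4 livers of 126, 198 and 96.3 RPKM (adjusted p = 0.039), a smaller difference with overlapping ranges. Surgery and series cannot be told apart in it. It did not pass without C4 replicate 1 or 3 or without S4 replicate 2, 3 or 5. With no filter on low values or with only these groups fitted it did not pass either. At 10 h, given with no test, X10 ranged from 509 to 1037 RPKM (median 708) and S10 gave 210.3, 225 and 166.

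At 20 h Plin2 was at 97.6 to 222 RPKM in X20 (median 164) and 102, 85.7 and 97.3 in S20. The difference did not pass (log2 0.74, 95% interval 0.20 to 1.29, adjusted p = 0.065), and the ranges overlapped. X28 then gave 527, 631 and 441 RPKM, 3.93-fold above C4 (log2 1.98 ± 0.32 SE, adjusted p = 1.1e-06). X36 (144 to 221 RPKM, median 162) was 2.01-fold above C0 (adjusted p = 2.7e-05), a call lost with C0 replicates 1 to 3 alone (log2 0.61, adjusted p = 0.062). At 48 h X48 gave 135, 61.0, 107, 64.6 and 162 RPKM and S48 84.1, 78.2 and 53.3, which did not pass (adjusted p = 0.18). From X72 on, Plin2 lay within 72.3 to 114 RPKM, inside the range of C0.

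**Figure D2:**
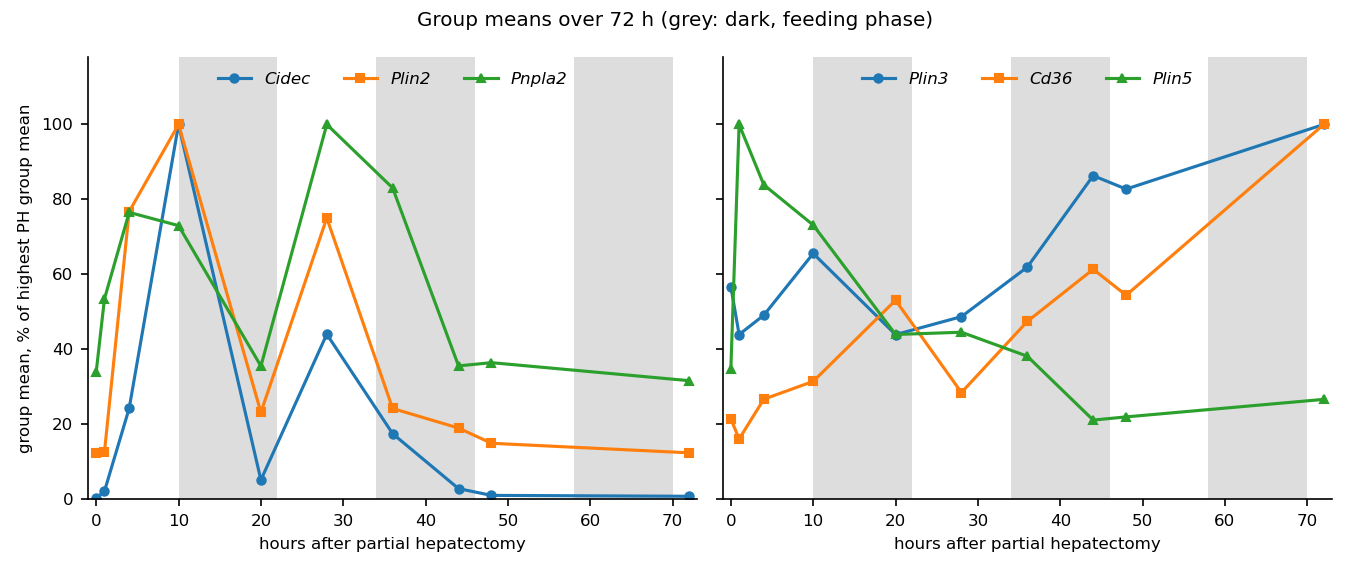
Group means after PH as a percentage of the highest PH group mean of each gene (linear axis), from 0 h (the C0 mean) to 72 h, with the dark feeding phase in grey. Cidec, Plin2 and Pnpla2 have a peak at 4 or 10 h, a trough at 20 h (5.10%, 23.1% and 35.5%) and a peak at 28 h (44.0%, 75.0% and 100%), whereas Plin3 and Cd36 are highest at 72 h and Plin5 at 1 h.

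Plin4 and Plin5 are neighbors on chromosome 17 (mm9; Plin4 at 56240014 to 56249225 and Plin5 at 56251024 to 56257019, both on the minus strand). Plin5 couples droplets to mitochondria in tissues that burn fat, and Plin4 coats nascent droplets in adipocytes. Unlike Cidec and Plin2, both were at or near their highest after PH at 1 h. X1 ranged from 3.82 to 7.69 RPKM for Plin4 (median 6.15) and S1 from 0.742 to 6.93 (median 1.72). For Plin5, X1 ranged from 53.8 to 78.6 RPKM (median 66.1) and S1 from 22.2 to 51.9 (median 34.7), without overlap.

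Neither PH-sham difference at 1 h passed the test. It was 1.49 ± 0.40 SE (log2, adjusted p = 0.051) for Plin4 and 0.94 ± 0.29 SE (adjusted p = 0.13) for Plin5. The value of Plin4 was 1.49 within replicates 1 to 3 and 1.49 within replicates 4 to 6. Plin4 did pass with a pseudocount of 1, with a stricter filter on low values and without S1 replicate 6, X1 replicate 1 or X1 replicate 6, and did not pass in the other settings without a replicate term. With a term for sets of 3 replicate numbers (1 to 3 and 4 to 6), which both groups hold equally, the same difference of 1.49 passed (adjusted p = 0.0098), and that of Plin5 did not (adjusted p = 0.060).

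The level at rest depended on which C0 livers were taken. Plin4 was at 0.170, 0.129 and 0.0806 RPKM in C0 replicates 1 to 3, at 2.24, 2.05 and 2.55 in replicates 4 to 6 and at 0.407, 0.340 and 0.478 in replicates 7 to 9, without overlap between any of these sets. Plin5 was at 13.5, 12.4 and 13.2 RPKM, then 34.8, 39.8 and 58.9, then 12.9, 12.98 and 10.6. Replicates 4 to 6 were thus high for both genes. Against all 9 C0 livers, X1 was higher 6.96-fold in Plin4 (adjusted p = 8.3e-09) and 3.45-fold in Plin5 (adjusted p = 2.0e-07). Against C0 replicates 4 to 6 alone, Plin4 kept a call (log2 1.23, adjusted p = 0.028) and Plin5 did not (0.61, adjusted p = 0.15). Within replicates 4 to 6 of both groups Plin4 was not called either (1.31, adjusted p = 0.070). The rises in S1, 2.48-fold for Plin4 and 1.79-fold for Plin5, turned to −0.25 and −0.34 on the log2 scale against replicates 4 to 6. The same livers turned the sign of Plin4 in X20 (2.65-fold over all C0 livers, log2 −0.16 against these) and X36 (2.42-fold, log2 −0.29). What sets these livers apart was not tested.

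At 4 h the S4 livers divided the same way. Plin5 in S4 was at 10.6, 23.0 and 16.7 RPKM in replicates 1 to 3 and at 40.7 and 39.4 in replicates 4 and 5, and X4 gave 43.2, 76.6 and 48.0. All X4 livers were higher, by 2.33-fold (log2 1.22 ± 0.37 SE, adjusted p = 0.015). The difference was 1.75 (adjusted p = 0.00087) against S4 replicates 1 to 3 and 0.44 (adjusted p = 0.67) against replicates 4 and 5. X4 replicates are numbered 4 to 6. Without S4 replicate 1, S4 replicate 3 or X4 replicate 5 the call was also lost, at 0.94 to 1.11 on the log2 scale, and it was lost with only these groups fitted. Plin4 in X4 was at 3.83, 6.37 and 3.25 RPKM and in S4 at 1.13, 1.22, 1.11, 2.74 and 2.68, without overlap, and did not pass (log2 1.27, adjusted p = 0.083).

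**Figure D3:**
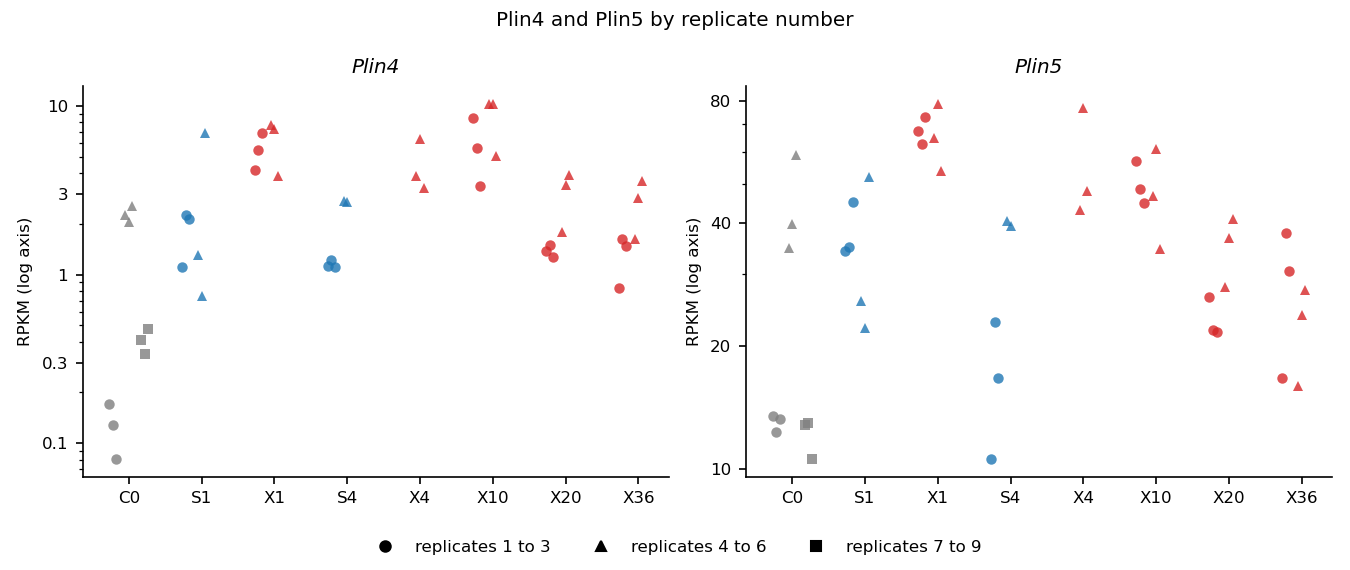
Plin4 and Plin5 in RPKM (log axes) in each liver of 8 groups, with replicates 1 to 3 as circles, 4 to 6 as triangles and 7 to 9 as squares, in the colors of the groups. In C0 the triangles sit above the other markers in both genes (2.05 to 2.55 RPKM in Plin4, 34.8 to 58.9 RPKM in Plin5), and in S4 as well.

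Later, Plin5 declined after PH. It was at 21.6 to 41.0 RPKM in X20 (median 27.2) and at 12.5, 16.9 and 12.8 in X44, at the same ZT22, a fall of 1.02 on the log2 scale (adjusted p = 0.026) without overlap. This call was lost without X20 replicate 5 or 6, or X44 replicate 1 or 3, with log2 values of −1.28 to −0.87 over all alternatives. With a term for each replicate number it was lost too (−0.87, adjusted p = 0.052). X20 replicates 1 to 3 had a mean of 23.3 RPKM and replicates 4 to 6 one of 35.3. X28 (16.6, 34.0 and 38.5 RPKM) was 2.10-fold above C4 (11.1, 15.9 and 12.8; adjusted p = 0.028), and this call was lost without C4 replicate 1 or 3 or X28 replicate 2 or 3, and with only these groups fitted. Plin4 in X28 was at 0.793, 0.812 and 0.781 RPKM, within the C4 range of 0.664 to 1.20.

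Plin3 (mm9, chr17:56418385-56429934, minus strand), a perilipin that also moves between cytosol and small droplets, changed late and by less. At 48 h X48 gave 21.5, 21.8, 21.2, 17.7 and 22.9 RPKM and S48 9.71, 14.1 and 14.2, without overlap. The difference was 1.66-fold (log2 0.73 ± 0.17 SE, adjusted p = 0.00031). X44 (19.2, 25.6 and 20.9 RPKM), X72 (24.2, 22.5 and 29.4) and X1W (23.1, 20.3 and 24.6) were all above the 10.4 to 16.9 RPKM of C0, by 1.52-, 1.76- and 1.58-fold (adjusted p = 0.00065, 1.0e-05 and 0.00070). The X44 rise was not called with C0 replicates 1 to 3 alone (log2 0.48) or without X44 replicate 2 (0.49), just under the limit of 0.5. X4W gave 17.5 and 16.0 RPKM and C4W 16.7 and 17.0.

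These rises were measured in libraries whose typical gene had shifted too. The median over all detected genes was 0.27 higher in X48 than in S48 on the log2 scale, and scaling libraries to the same median moved every gene by 0.45 in this comparison. Over the 24 comparisons this shift ran from −0.25 to 0.49 and exceeded 0.1 in 15. Scaling turned the sign of the median over all genes, to −0.17 in X48 against S48 and −0.24 in X44 against C0. Scaled values are therefore an alternative and not a corrected level. After scaling, Plin3 was 0.29 higher in X48 than in S48 (adjusted p = 0.16), 0.46 higher in X72 than in C0, 0.46 higher in X1W and 0.13 higher in X44, all below the limits of a call. X44 against X20, at the same ZT22, was a 1.95-fold rise (log2 0.96 ± 0.16 SE, adjusted p = 3.2e-06) and passed after scaling as well (0.70, adjusted p = 0.00037).

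Cd36 (mm9, chr5:17287508-17394777, minus strand), which brings long-chain fatty acids into cells, was higher after PH from 20 h on, other than in X28. Its C0 livers gave 4.28 to 7.52 RPKM (median 5.99), and X1, X4 and their sham groups lay between 2.87 and 10.0 RPKM. X20 gave 8.22, 10.3, 10.0, 13.6, 14.5 and 33.4 RPKM and S20 8.15, 6.64 and 5.69. No X20 liver was below any S20 liver, and the 1.94-fold difference passed narrowly (log2 0.96 ± 0.32 SE, adjusted p = 0.036). Without X20 replicate 6, the 33.4, it was 0.69 (adjusted p = 0.13). With X20 replicates 1 to 3 alone it was 0.47 (adjusted p = 0.38), and with X20 replicates 4 to 6 alone 1.44 (adjusted p = 0.0058). The call was also lost without any 1 of the S20 livers and under 4 other alternatives.

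At 48 h X48 gave 17.1, 11.2, 18.97, 15.3 and 14.3 RPKM and S48 5.07, 7.30 and 6.95, a 2.33-fold difference without overlap (log2 1.22 ± 0.33 SE, adjusted p = 0.0018). With libraries scaled to the same median it was 0.77 (adjusted p = 0.050). X72 gave 41.6, 17.2 and 26.0 RPKM and X1W 23.1, 12.2 and 24.5, 4.32- and 3.12-fold above C0 (adjusted p = 2.1e-08 and 2.2e-05). These, and the rises over C0 in X20, X36, X44 and X48, passed in all 13 alternatives and without any 1 liver. X4W gave 10.5 and 10.3 RPKM and C4W 7.04 and 5.11, which did not pass (log2 0.77, 95% interval −0.11 to 1.65, adjusted p = 1).

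Cd36 is also expressed by macrophages and endothelium. The 6 macrophage markers summed to a median of 22.7 RPKM in C0, 37.3 in X48, 37.2 in S48, 39.3 in X72 and 63.4 in X1W, with a range of 8.47 to 138 over the C0 livers. The 6 endothelial markers had medians of 24.6 RPKM in C0, 18.3 in X48, 24.2 in S48, 17.6 in X72 and 28.8 in X1W. Fabp4 was at 27.0 ± 9.98 RPKM in X48 and 8.56 ± 2.07 in S48 (SD, n = 5 and 3). The part of these cells in the rise of Cd36 was not tested.

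Pnpla2 (mm9, chr7:148641097-148646642, plus strand) was higher at ZT6 than at ZT2 without surgery. The 4 h groups of either operation were higher still than C4, where surgery and series cannot be told apart. C0 (ZT2) ranged from 10.1 to 19.6 RPKM with a median of 12.9, and C4 (ZT6) gave 18.98, 19.04 and 22.5, a 1.45-fold rise (adjusted p = 0.016) that was lost under 5 of 13 alternatives and without C0 replicate 7 or C4 replicate 2 or 3. At 4 h X4 gave 27.6, 34.2 and 33.2 RPKM and S4 22.1, 29.5, 25.7, 31.5 and 35.8. The PH-sham difference was 0.14 on the log2 scale (95% interval −0.20 to 0.49, adjusted p = 0.70), and the ranges overlapped. Both surgeries were above C4, X4 by 1.56-fold (adjusted p = 0.0041) and S4 by 1.41-fold (adjusted p = 0.012), the latter lost with a pseudocount of 1 and without C4 replicate 1 or 2 or S4 replicate 2, 4 or 5. The highest levels were those of X28 (29.5, 46.2 and 48.5 RPKM, 2.00-fold above C4, adjusted p = 3.1e-05) and X36 (27.6 to 45.8, median 34.0, 2.44-fold above C0, adjusted p = 7.2e-14). X20 and X44 at ZT22, and X48 and X72 at ZT2, were between 11.3 and 20.2 RPKM, against 10.5 to 15.4 in S20 and S48 and 10.1 to 19.6 in C0.

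G0s2 (mm9, chr1:195098355-195099382, minus strand), the ATGL inhibitor, varied widely among livers of the same group. C0 ranged from 9.64 to 109 RPKM with a median of 24.7, and S1 from 6.98 to 119 with a median of 33.6. At 4 h it was lower than in C4 after either operation, and surgery and series cannot be told apart there. The group means on the log2 scale were 3.05 in S4, 4.61 in X4, 6.43 in C4 and 4.68 in C0 (ZT2). S4 gave 1.962, 8.14, 21.7, 7.69 and 11.6 RPKM against 67.2, 108 and 86.8 in C4, a fall of 3.38 on the log2 scale (adjusted p = 4.0e-06). X4 gave 10.3, 44.3 and 30.9 RPKM, a fall of 1.82 (adjusted p = 0.021) that was lost without C4 replicate 2 or X4 replicate 4 and under 3 other alternatives. The PH-sham difference at 4 h was 1.57 (95% interval 0.36 to 2.77), with an adjusted p of 0.078. At 10 h S10 gave 128, 174 and 114 RPKM and X10 41.0 to 242 (median 162), with overlap. By 48 h S48 was at 10.3, 11.5 and 3.93 RPKM and X48 at 23.5, 11.8, 15.4, 9.31 and 24.8 (adjusted p = 0.19).

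Cideb (mm9, chr14:56372882-56377295, minus strand), which takes part in loading lipid onto lipoproteins in hepatocytes, had the smallest ratio of group means among the members tested. All 80 livers lay between 69.3 and 151 RPKM, and the highest group mean was 1.59 times the lowest. It was lower than in C4 (143, 130.0 and 134 RPKM) in X4 (75.9, 91.1 and 88.7; fall of 0.67 on the log2 scale, adjusted p = 2.5e-06) and in S4 (69.3, 81.9, 91.3, 97.9 and 109; fall of 0.61, adjusted p = 2.0e-06). After scaling to the same median the falls were smaller than the limit of 0.5. The PH-sham differences at 1, 4, 20 and 48 h were −0.13, −0.06, −0.02 and −0.00 on the log2 scale, and their 95% intervals reached from −0.29 to 0.20. With libraries scaled to the same median the 48 h difference was −0.45 (adjusted p = 0.00028), which stayed within the limit of 0.5. Under the same scaling X48 was lower than C0 by 0.79 on the log2 scale (adjusted p = 6.5e-14), a call that the main fit did not give. The median over all genes was −0.21 in this comparison after scaling.

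**Figure D4:**
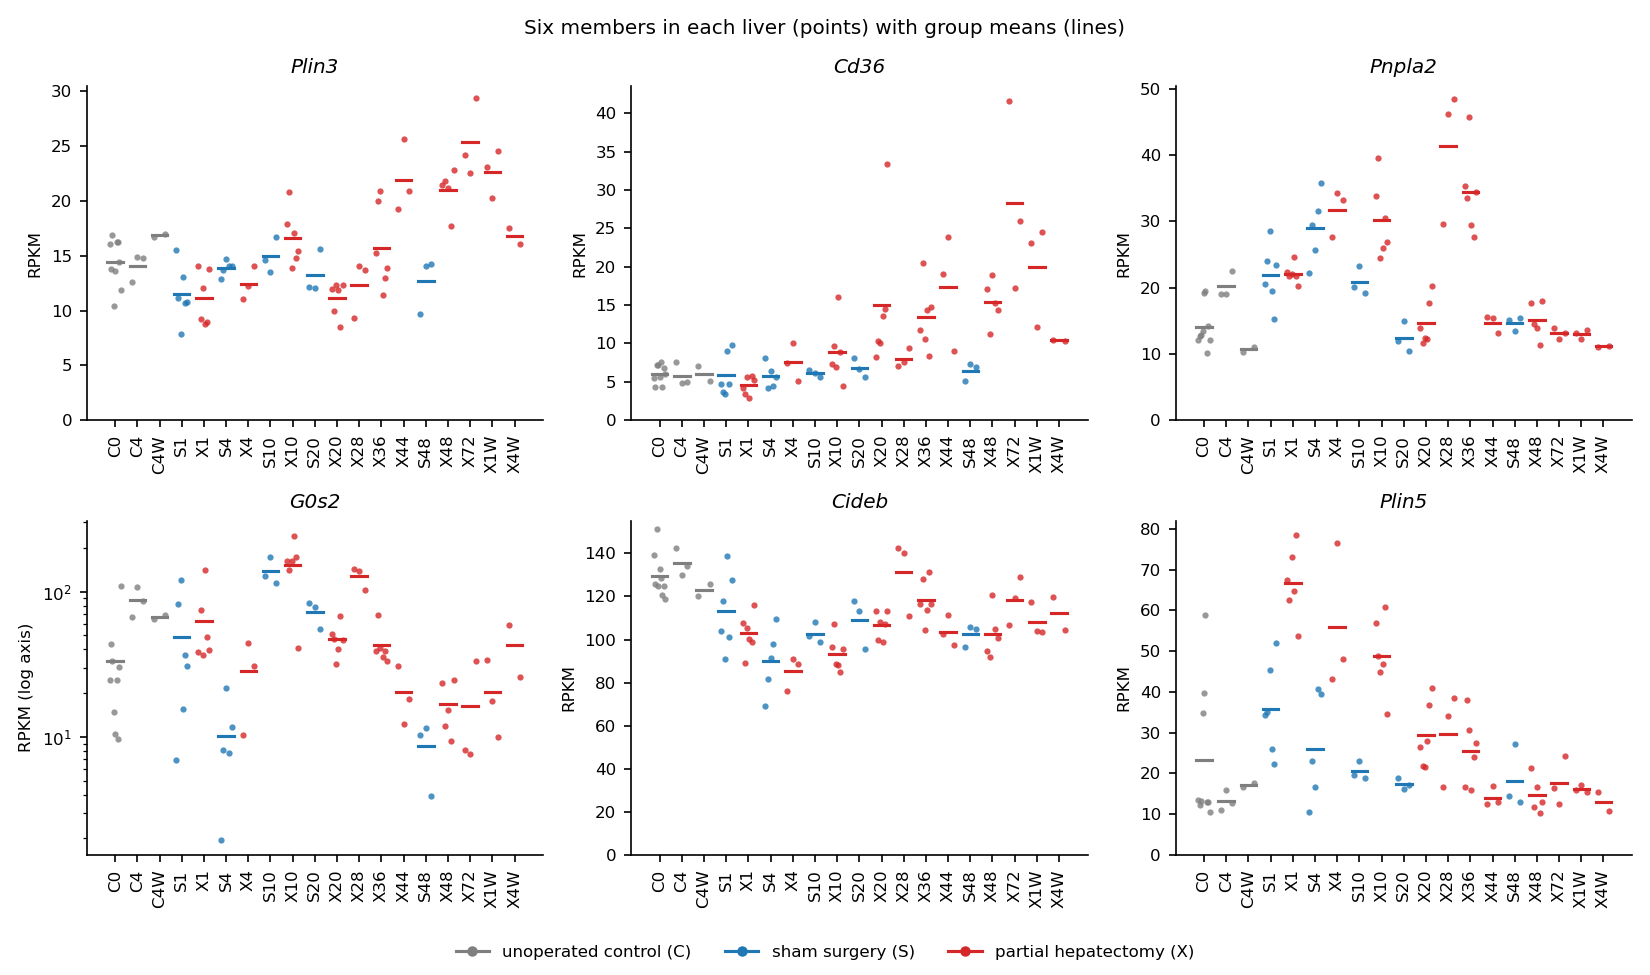
Plin3, Cd36, Pnpla2, Cideb and Plin5 in RPKM on linear axes and G0s2 on a log axis, in each of 80 livers by group; points are livers and lines group means. Plin3 and Cd36 are highest in X72 (means of 25.4 and 28.3 RPKM), Pnpla2 in X28 (41.4 RPKM) and Plin5 in X1 (66.7 RPKM), while Cideb stays between 69.3 and 151 RPKM.

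The members' counts were set beside the share of all 15396 detected genes called in the same comparison. Between PH and sham surgery, 0 of 9 members were called at 1 h, where 0.65% of all genes were (2 members, Plin4 and Plin5, had an unadjusted p below 0.05 in limma). At 4 h 3 of 9 were called, where 8.64% of all genes were, and 4 of 9 did not overlap, where 21.6% of all genes did not. At 20 h it was 2 of 9 with 7.11%, and at 48 h 2 of 9 with 27.2%, near the share of all genes. Scaling libraries to the same median changed the higher share of all calls from 36.5% to 48.2% at 4 h, from 63.3% to 42.1% at 20 h and from 90.1% to 30.7% at 48 h.

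Against C4, 7 of 9 were called in X4 (45.6% of all genes), 5 of 9 in S4 (43.3%) and 4 of 9 in X28 (32.7%). The C4 livers are shared by these comparisons and came from another experimental series than X4, S4 and X28. Cidec rose 18.2-fold in X4 and 2.49-fold in S4 on this base, the latter lost without any 1 of the 3 C4 livers or S4 replicates 1, 2 or 5, with a pseudocount of 1 and with no filter on low values, and Plin2 4.05-fold and 1.60-fold. Against C0, 5 were called in X1 (13.5% of all genes), 4 in S1 (7.77%), 4 in X20 (24.1%), 1 in S20 (12.1%), 5 in X36 (35%), 3 in X44 (39.2%), 3 in X48 (38.1%), 1 in S48 (8.88%), 2 in X72 (33.2%), 2 in X1W (16.9%) and 2 in C4 (7.89%). These comparisons share the C0 livers. In X44 (33.3%), X48 (33.3%) and X72 (22.2%) the members' share was below that of all genes. Scaling to the same median moved the higher share of all calls by over 10 points in 21 of the 24 comparisons.

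At 4 weeks 0 of 9 members were called between X4W and C4W, where limma called 10 genes (0.065%), and none had an unadjusted p below 0.05. With 2 livers in each group, 6 of 9 members did not overlap, and neither did 50.1% of all genes, so the ranges say little here. Cidec was at 0.236 and 0.149 RPKM in X4W and 0.448 and 0.626 in C4W, a log2 difference of −0.83 (95% interval −2.36 to 0.70).

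**Figure D5:**
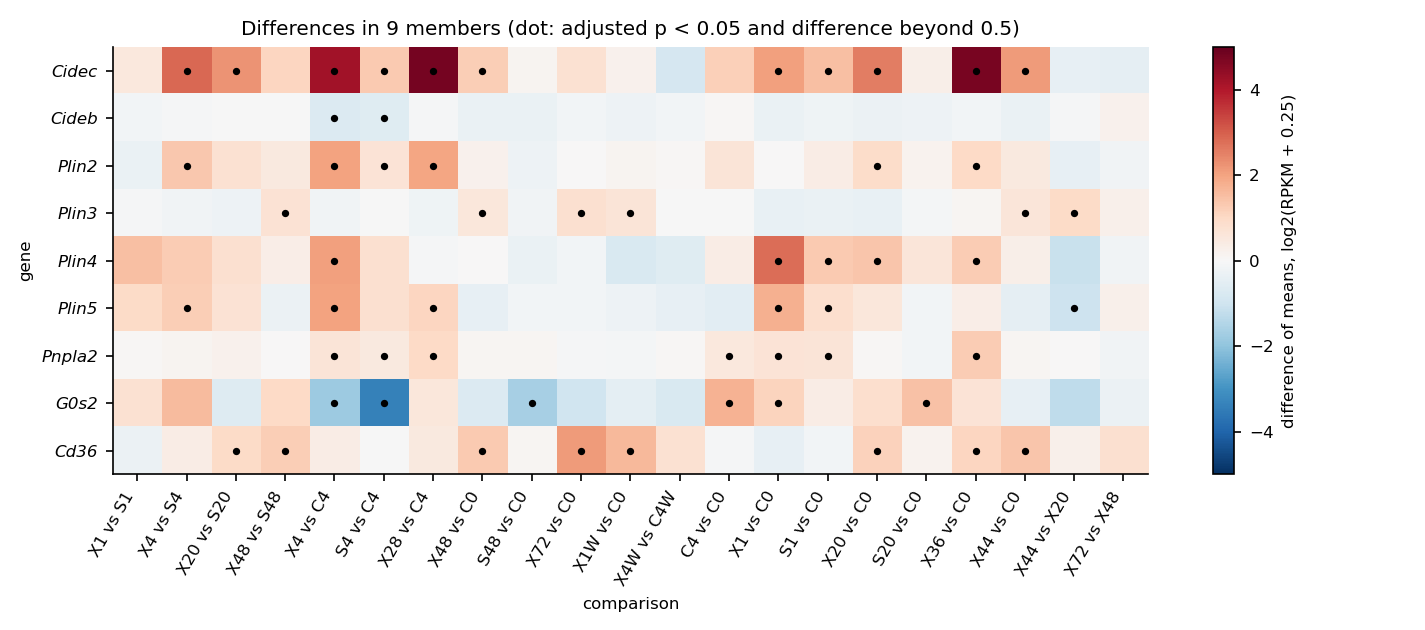
Differences of group means on log2(RPKM + 0.25) for 9 members (rows) in 21 comparisons (columns), red for higher and blue for lower in the group named before vs, with a dot where the gene was called. Cidec has the largest differences (4.77 in X28 vs C4), and dots for Plin3 and Cd36 lie mostly in the comparisons of X44, X48, X72 and X1W.

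Whether the PH-sham difference itself changed with time was tested by its difference between sampling times. From 4 h to 20 h 0 of 9 members passed in limma, where 11% of all genes did, and 1 member, G0s2, had an unadjusted p below 0.05. From 20 h to 48 h Plin3 passed, 1 of 9 members with 13.2% of all genes. Its PH-sham difference went from −0.25 to 0.73 on the log2 scale, a change of 0.98 ± 0.24 SE (adjusted p = 0.0018). From 4 h to 48 h 2 of 9 passed with 33.6% of all genes, Plin3 upward by 0.90 ± 0.24 SE (adjusted p = 0.0020) and Plin5 downward (−1.504 ± 0.52 SE, adjusted p = 0.017). The Plin5 value was lost without S4 replicate 1, S48 replicate 2 or X4 replicate 5, and when only these groups were fitted. Both Plin3 values missed the limits of a call after scaling to the same median (0.62 and 0.40). For Cidec the difference went from 2.87 at 4 h to 2.26 at 20 h and 1.07 at 48 h, and the decline to 48 h did not pass (−1.80 ± 0.81 SE, adjusted p = 0.071). For Plin2 it went from 1.34 to 0.74 and 0.48 (adjusted p = 0.086 between 4 and 48 h). Between the 2 late PH groups, X72 and X48, 0 of 9 members were called in limma (5.96% of all genes), and 1, Cd36, had an unadjusted p below 0.05 (log2 0.80, adjusted p = 0.12). Between X44 and X20, 2 of 9 were called (16.1% of all genes), Plin3 upward and Plin5 downward as given above.

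Over the 19 group means, which include X10 and S10, Cidec ran most closely with Plin2 among the members (Pearson r = 0.93), then with Pnpla2 (0.85). Plin4 and Plin5 had r = 0.90 and Plin3 and Cd36 0.76, while Plin3 and Plin5 ran opposite (−0.57). Groups share the normalization of the table and PH livers recur in many of them, so these values are descriptions. Among 11644 genes with a group mean of at least 1 RPKM, the 3 nearest to Cidec were Slc22a5, encoding the carnitine transporter OCTN2 (r = 0.94), Gm15441 (0.93) and Enc1 (0.93). Those nearest to Plin2 were Slc22a21 (0.96), another carnitine transporter gene, Slc22a5 (0.94) and Gm12551 (0.94). For Plin4 and Plin5 the nearest gene of all was the other of the pair. For Plin3 they were Kpna4 (0.88), Cnot2 and Rnf6 (0.87 each), for Cd36 Mettl15 (0.94), Col4a2 (0.93) and Gca (0.92), for Pnpla2 Eci2 (0.90) and Mfsd2a (0.88), for G0s2 Slc25a42 (0.85), Optn (0.85) and Pllp (0.84), and for Cideb Nr0b2 (0.87), Hint3 (0.86) and Lmo2 (0.86).

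The wider machinery of droplets was followed in 6 lists with 62 other genes, 61 of them detected. At 1 h 1 rose between PH and sham surgery, where 0.65% of all genes were called: Hilpda, a droplet protein that inhibits ATGL (2.24-fold, adjusted p = 0.0098, named after its values were seen). At 4 h 9 rose and 2 fell (18.0% of the 61, beside 8.64% of all genes called), and at 20 h 2 rose and 7 fell (14.8%, beside 7.11%). At 48 h 11 rose and 6 fell, and this share of 27.9% was about that of all genes, 27.2%. The median difference over the 61 was 0.22, 0.0010 and 0.13 at these times on the log2 scale, beside −0.04, 0.07 and 0.27 over all detected genes. The counts of each list are to be read against the same shares of all genes. They come from the main fit, without scaling libraries to the same median, which lowers every difference at 48 h by 0.45. The same holds for the genes named in the next paragraph. Among 13 coat and biogenesis genes, 2 rose and 2 fell at 4 h, and 0 were called at 20 h or at 48 h. Among 13 triglyceride synthesis genes, 1 rose at 4 h, 1 at 20 h and 7 at 48 h, where 1 fell. Of 7 lipolysis genes, 2 rose at 4 h, 2 fell at 20 h, and 1 rose and 1 fell at 48 h. Of 15 genes of fatty acid uptake and binding, 2 rose at 4 h, 1 rose and 3 fell at 20 h, and 2 rose and 3 fell at 48 h. None of the 4 lipoprotein export genes was called between PH and sham surgery at these times, and 3 of 4 rose in X28 against C4, where 32.7% of all genes were called. Of 9 regulators, 2 rose at 4 h, 2 fell at 20 h, and 1 rose and 1 fell at 48 h.

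At 20 h the genes of these lists that rose were Angptl4, which encodes an inhibitor of lipoprotein lipase, and Agpat9, an acyltransferase of triglyceride synthesis. Angptl4 was at 37.0 ± 15.4 RPKM in X20 and 12.4 ± 2.97 in S20 (SD, n = 6 and 3), 2.79-fold higher (adjusted p = 0.0074). Agpat9 was 2.12-fold higher (adjusted p = 0.0064). The 3 largest falls were those of the hydrolase gene Ces1d (65.6 ± 22.2 against 221 ± 26.9 RPKM, fall of 1.81 on the log2 scale), Srebf1, the regulator of fatty acid synthesis (12.3 ± 4.97 against 31.0 ± 0.0758 RPKM, fall of 1.45), and the fatty acid transport gene Slc27a1 (fall of 0.92). At 48 h the largest rises were those of Fabp4 (2.96-fold, adjusted p = 0.00014), Fabp2 (2.43-fold, adjusted p = 5.1e-05) and Agpat9 (2.26-fold, adjusted p = 0.00071), and the largest falls those of Lpin1, a phosphatidate phosphatase gene (15.8 ± 10.5 against 76.1 ± 33.6 RPKM, fall of 2.33 on the log2 scale), Slc27a5 (fall of 0.98) and Ces1d (fall of 0.93).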

How the data were processed

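Poly(A) RNA of 80 individual livers had been sequenced as stranded single-end libraries. The authors trimmed reads, aligned them with TopHat2 2.0.13 and Bowtie2 to mm9, used SAMtools 0.1.19 and counted reads per gene with featureCounts. The deposited log2 values are log2 RPKM, normalized by the authors, with reads of several matches split among them, and the table's lowest value, −14.3, was taken as 0 RPKM. Here the values were turned back to RPKM, and log2(RPKM + 0.25) was fitted for the 15396 of 37991 genes with a deposited value above −1.5 in at least 1 library, with limma 3.58.1 (R 4.3.3; 1 mean for each of 19 groups, eBayes with trend), a log-scale model because the values are not counts. Calls needed a Benjamini-Hochberg adjusted p below 0.05 over all these genes and a difference beyond 0.5. Estimated reads came from RPKM, exon length and depth, and depth (12.2 to 48.8 M reads, median 26.7 M) limits low genes. Python 3.11.15, numpy 2.4.6, pandas 2.3.3 and matplotlib 3.10.9 did the rest. The fit was tested on simulated data.

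All 10 members are named. From the wider lists the 3 largest called rises and falls at 20 and 48 h are named, and for each member the 3 genes with the highest Pearson r over group means, of which 1 is not reported here. Members and lists were chosen with earlier results of these data known. Promoter windows came from RefSeq (GRCm38.p6) and gene positions from mm9, and no coordinate was converted. Alternatives were other pseudocounts (0.1, 1 and none), other filters, scaling to equal medians, a constant prior variance, replicate terms, fits of only the groups compared, subsets of replicates (some chosen after seeing the data) and leaving out each of 71 livers in turn. Another 4 columns of values were used in no result, and 7 labelled samples were not analysed here. Cidea was below the detection limit and was not tested.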

Additional observations from a re-analysis of the deposited data

Results flagged for a closer look

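Within groups of 4 to 10 livers, 72 pairs of group and gene were looked at for a liver far from the others, and 2 were found, where chance gives about 1 in 20. Both were in G0s2, the ATGL inhibitor gene. X10 replicate 6 was at 41.0 RPKM, and the other X10 livers were at 140.5 to 242 RPKM. X36 replicate 2 was at 68.6 RPKM, and the other X36 livers were at 33.5 to 41.1 RPKM.

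The PH-sham difference of 2 perilipin genes differed between sampling times in limma. That of Plin3 was higher at 48 h than at 20 h by 0.98 on the log2 scale and higher than at 4 h by 0.90. That of Plin5 was lower at 48 h than at 4 h (log2 −1.504). The Plin3 values did not pass with libraries scaled to the same median, and the Plin5 value rests on S4 replicate 1, S48 replicate 2 and X4 replicate 5, without each of which it did not pass.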

How the results depend on the processing

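Of the 60 calls of a member in a comparison, 614 of 675 values with 1 liver left out kept the call and 61 lost it, and 639 of 726 values under other settings kept it, 81 lost it and 6 changed sign. The numbers called, out of 9 members, changed as follows. With a pseudocount of 1 there was 1 at 1 h between PH and sham and 3 in S4 against C4. With no filter on low values there were 1 at 20 h, 3 in S4 against C4, and 0 in S48 and S20 against C0. With the stricter filter there was 1 at 1 h. With libraries scaled to the same median there were 0 at 48 h, 1 in X1W, 1 in C4 and 0 in S20 against C0, 4 in X44 against X20, and 0 for the change of the PH-sham difference from 20 h to 48 h. With only the groups compared there were 0 at 20 h, 0 in S48, 1 in C4, 2 in S1 and 0 in S20 against C0, and 2 for the change from 20 h to 48 h. With X20 replicates 1 to 3 alone there was 1 at 20 h.

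Same-numbered livers were not treated as pairs. In no comparison with 3 or more pairs was every correlation of their deviations over 0.1. In X36 against C0, however, 4 of 6 were, with the highest at 0.30. Such a check of single numbers cannot exclude a structure shared by sets of replicate numbers. With the replicate block there were 1 call at 1 h (Plin4, adjusted p = 0.015 in limma), 0 in S48, 1 in C4 and 0 in S20 against C0, and 1 in X44 against X20. With a block on triplicates there were 1 at 1 h (Plin4 again, adjusted p = 0.0098), and 0 in S48, 1 in C4 and 0 in S20 against C0.

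The choice of C0 livers mattered most for Plin4 and Plin5. With C0 replicates 4 to 6 alone there were 5 calls in X48, 2 in S48, 4 in X72, 4 in X1W, 4 in C4, 3 in X1, 1 in S1, 2 in S20 and 6 in X44. Plin4 then turned to −1.55 in X48, −1.20 in C4, −0.25 in S1, −0.16 in X20, −0.29 in X36 and −1.26 in X44, and Plin5 to −0.34 in S1 and −0.83 in X36. With replicates 4 to 6 of both groups there was 1 call in X1 and 0 in S1, where Plin4 was −0.18 and Plin5 −0.48. With C0 replicates 7 to 9 alone there were 1 call in C4 and 0 in S20. The cause was not tested.

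Leaving out 1 liver at a time gave, between PH and sham, 0 to 1 calls at 1 h, 2 to 4 at 4 h, 1 to 3 at 20 h and 2 at 48 h. Against C4 it gave 6 to 7 in X4, 2 to 5 in S4 and 3 to 4 in X28. Against C0 it gave 4 to 5 in X1, 3 to 4 in S1, 4 to 5 in X20, 0 to 1 in S20, 2 to 4 in X44, 5 in X36, 0 to 1 in S48, 2 to 3 in X48, 2 to 3 in X72, 2 in X1W and 0 to 2 in C4. It gave 0 in X4W against C4W, 1 to 4 in X44 against X20, 0 in X72 against X48, and 0 to 1, 1 and 1 to 3 for the changes of the PH-sham difference from 4 h to 20 h, 20 h to 48 h and 4 h to 48 h.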
